A study of Mus musculus with 5 samples.

Results

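The genes of langerin and of 9 other C-type lectin receptors were followed in Langerhans cells that lacked or kept Suz12. The members are Cd207, Ly75, Mrc1, Clec7a, Clec10a, Clec4e, Clec4d, Clec4n, Clec4a2 and Clec12a, chosen by name as uptake and pattern receptors of Langerhans cells and dendritic cells outside the Cd209 cluster. All 10 symbols matched 1 row each among the 27179 genes of the count table, and all 10 had enough counts to be tested. Each library held the polyadenylated RNA of 5000 Langerhans cells purified from skin, and the C57BL/6 mice were 1 week old. The groups were wild type (2 biological replicates) and Suz12 cKO, a conditional knockout of Suz12 (3 biological replicates). The label does not name the driver of the deletion, and no other allele or treatment is given for either group. Because RNA was pooled from many cells, fewer cells of a type and less RNA per cell cannot be told apart.

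C-type lectin receptors are membrane proteins that bind sugars and other ligands through a C-type lectin-like domain. Uptake receptors such as langerin carry bound material into endosomes for antigen presentation. Activating pattern receptors signal through Syk and Card9, either by a motif of their own or through the adaptor Fcer1g, and inhibitory receptors recruit phosphatases such as Ptpn6. Suz12 belongs to the core of Polycomb repressive complex 2, which methylates histone H3 at lysine 27, mainly at CpG-rich promoters of silent genes.

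The promoters of 4 members are shown because Ly75 lay above wild type in every cKO library, Clec4a2 and Mrc1 lay below it in every cKO library, and Cd207 was the most abundant member. Each run is the RefSeq window on GRCm38.p6 from 250 bases before to 50 bases after the gene's start, 5′ to 3′ on the gene's strand, with every CpG in capitals. Ly75 is at chr2:60383224-60383523 (minus strand), Clec4a2 at chr6:123122440-123122739 (plus), Mrc1 at chr2:14229164-14229463 (plus) and Cd207 at chr6:83677808-83678107 (minus).
Ly75: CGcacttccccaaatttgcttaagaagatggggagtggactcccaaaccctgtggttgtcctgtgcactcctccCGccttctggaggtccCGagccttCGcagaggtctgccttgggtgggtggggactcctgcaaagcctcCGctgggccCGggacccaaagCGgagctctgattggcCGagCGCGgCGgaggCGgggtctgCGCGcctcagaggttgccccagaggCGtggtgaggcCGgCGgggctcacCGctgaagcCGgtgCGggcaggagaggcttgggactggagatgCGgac
Clec4a2: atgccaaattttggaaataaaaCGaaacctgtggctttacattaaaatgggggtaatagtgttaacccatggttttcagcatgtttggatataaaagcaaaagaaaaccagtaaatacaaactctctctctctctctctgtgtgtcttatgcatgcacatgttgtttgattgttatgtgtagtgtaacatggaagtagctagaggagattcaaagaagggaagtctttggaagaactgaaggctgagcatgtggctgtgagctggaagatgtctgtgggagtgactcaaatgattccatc
Mrc1: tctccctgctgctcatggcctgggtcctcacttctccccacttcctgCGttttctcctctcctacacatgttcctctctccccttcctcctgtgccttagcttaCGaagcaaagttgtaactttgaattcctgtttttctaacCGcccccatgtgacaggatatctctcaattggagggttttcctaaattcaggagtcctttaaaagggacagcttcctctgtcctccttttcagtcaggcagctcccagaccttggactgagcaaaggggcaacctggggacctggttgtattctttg
Cd207: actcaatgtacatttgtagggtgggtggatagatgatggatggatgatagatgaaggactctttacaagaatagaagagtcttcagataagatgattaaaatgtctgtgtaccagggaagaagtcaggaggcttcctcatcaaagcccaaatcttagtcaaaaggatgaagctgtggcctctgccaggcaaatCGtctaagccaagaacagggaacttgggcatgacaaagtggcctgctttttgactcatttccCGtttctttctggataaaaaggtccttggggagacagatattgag

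The Ly75 window held 21 CpG and the windows of Clec4a2, Mrc1 and Cd207 held 1, 3 and 2. A window was found for 8 of the 10 members, and the 7 genes other than Ly75 had 0 to 5 CpG. Among all 32851 promoter windows of that length, 24.8% held 21 CpG or more and 43.6% held 5 or fewer. The letters GAGGAA, the core of sites for the myeloid factor PU.1, were searched on both strands and stood in the windows of 6 of the 8 members, against 28.3% of all windows. In Cd207 they began 118 bases before the start. The AP-1 letters TGANTCA, also read on both strands, stood in the windows of Cd207, Clec4a2 and Clec12a, and in 7.81% of all windows. In Cd207 they began 7 bases before the start. The matches describe letters in these windows and not bound sites.

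The libraries held 12090062 to 25725900 counts assigned to genes. Suz12 (chromosome 11, 79993106 to 80034123) was counted 88 and 39 times in the wild type libraries, against 0, 0 and 7 times in cKO replicates 1 to 3, in the direction of the labels. Counts per gene do not show which exons remain transcribed. The source label names alveolar macrophages, whereas the titles, tissue and protocol name skin Langerhans cells. Epcam and H2-Aa, from a list of 14 Langerhans cell markers, were at 1042 CPM or more and 18154 CPM or more in every library, and above the alveolar macrophage genes. Not all of the 14 were: Itgax lay between 17.4 and 78.4 CPM and Runx3 between 19.1 and 41.0 CPM. The list of 11 alveolar macrophage genes summed to 258 to 807 CPM per library. Siglecf, Car4, Chil3 and Cidec of it had no count. In the library where each was highest, Ear2 reached 466 CPM, Krt79 177 CPM, Plet1 171 CPM and Marco 45.7 CPM. Krt79 stands in the keratinocyte list too. CPM are counts scaled to a common library size with TMM factors, which correct for the composition of each library. The intervals and floors below hold for counting error alone, since the libraries were amplified and carry no molecular identifiers.

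Cd207, which encodes langerin, the receptor that forms Birbeck granules, far exceeded the other members in wild type. Levels of different genes are compared here as CPM per kilobase of counted gene length. Cd207 lay at 4902 ± 77.5 CPM per kilobase in wild type (SD, n = 2), 21.8 times the mean level of the next gene. It was between the 10th and the 20th most abundant gene of each library on this scale. It made up 87.6% to 94.2% of the summed level of the 10 members, depending on the library. Clec7a, which encodes the beta-glucan receptor dectin-1, followed at 225 ± 150 CPM per kilobase. Clec4n, the gene of dectin-2, lay at 150 ± 125, and Clec4a2, the gene of the inhibitory receptor DCIR, at 63.2 ± 22.0 CPM per kilobase.

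The other 6 members had wild-type means under 20 CPM per kilobase. Clec10a, a galactose-type lectin, lay at 18.1 ± 1.46 CPM per kilobase. Clec4d lay at 13.2 ± 8.77, Clec12a at 10.9 ± 10.2 and Clec4e at 9.29 ± 13.1 CPM per kilobase. The mannose receptor gene Mrc1 lay at 7.21 ± 2.59 and Ly75, which encodes the uptake receptor DEC-205, at 2.73 ± 2.57 CPM per kilobase. The values of both wild type libraries separated Cd207 from Clec7a, Clec4a2 from Clec10a, and Mrc1 from Ly75. The other 6 neighbours in the order overlapped, so their order is within the spread of the libraries. The first 4 places were the same in each wild type library alone, and the lower places were not all the same.

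**Figure D1:**
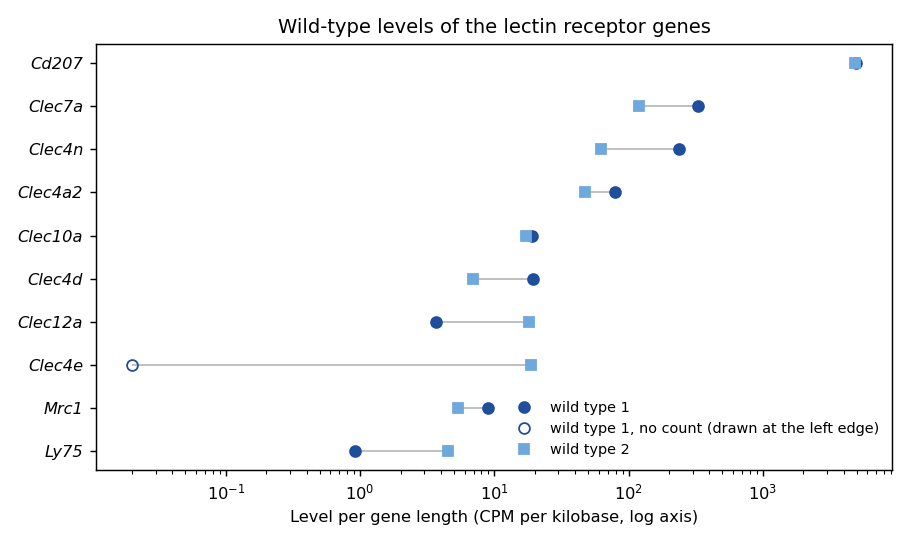
Level of each member in the 2 wild type libraries, as CPM per kilobase of counted gene length on a log axis; a grey line joins both libraries and the open circle is a library with no count. Cd207 stands 21.8 times above Clec7a by the means, and Clec4e has no count in wild type replicate 1.

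No member passed the test of genotype. Across all 9988 tested genes edgeR's quasi-likelihood test called 0 genes at an adjusted p of 0.05 (0.0%), and 415 (4.15%) had an unadjusted p under 0.05, among them 1 of the 10 members, Clec4a2. DESeq2 called 191 genes (1.91%) and no member. Of the members 5 lay higher and 5 lower in cKO, with a median log2 fold change of -0.06, where 52.5% of tested genes lay higher and the median over all of them was 0.06. The groups did not overlap for 3 members (1 higher, 2 lower), against 19.0% of tested genes (8.87% higher and 10.2% lower). A share of 3 in 10 does not set the members apart from that background, and a missed threshold with 2 and 3 libraries does not show that the genotypes were alike. The libraries come from separate biological replicates, so the p-values measure the spread between them.

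**Figure D2:**
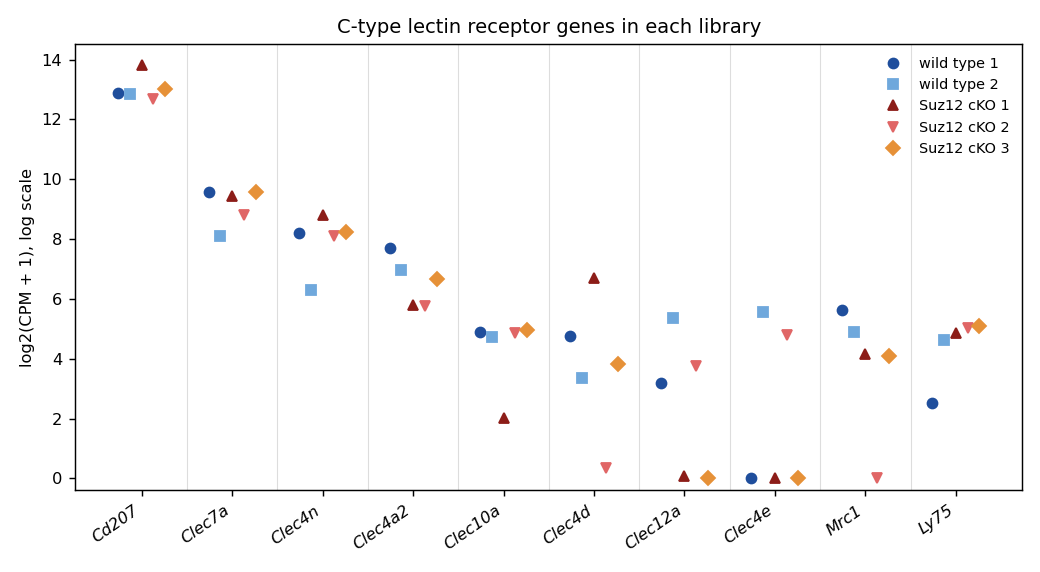
log2(CPM + 1) of each member in the 5 libraries, ordered by wild-type level per length; each point is 1 library. The cKO points of Clec4a2 and Mrc1 lie below both wild type points and those of Ly75 above them, while Clec4e and Clec12a range from no count to 46.8 and 40.1 CPM.

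Among the uptake receptors, Cd207 was high in every library and the groups overlapped. It lay at 7584 and 7417 CPM in wild type libraries 1 and 2, against 14597, 6639 and 8393 CPM in cKO replicates 1 to 3. The wild type values lay within 1.02 times of each other, whereas cKO replicate 1 stood above every other library and cKO replicate 2 was the lowest of the 5. The log2 fold change (± its standard error, here and below) was 0.40 ± 0.37 (edgeR adjusted p = 0.999), and it was 0.02 without cKO replicate 1. The gene spans 83671207 to 83677857 on chromosome 6 of mm10.

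The 5 genes closest to Cd207 across the libraries were Tpt1, Mrpl28, Emc2, Slc25a3 and Rheb. Likeness was the root-mean-square distance between log2(CPM + 1) values centred on each gene's mean over the 5 libraries, taken over the 2669 other genes that averaged 50 CPM or more. The distances ran from 0.04 for Tpt1 to 0.14 for Rheb. Tpt1 lay at 160 and 171 CPM in wild type libraries 1 and 2, against 322, 147 and 180 CPM in cKO replicates 1 to 3. All 5 were highest in cKO replicate 1, as Cd207 was, which their choice by likeness to Cd207 favours. Of the members above that level, Clec7a was 1223rd, Clec4n 1869th and Clec4a2 2333rd in likeness to Cd207.

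Ly75 was the 1 member that lay higher in every cKO library. It had 4.71 and 23.5 CPM in wild type libraries 1 and 2, against 28.2, 31.7 and 33.0 CPM in cKO replicates 1 to 3. The cKO libraries lay close together, and wild type replicate 1 stood apart from the other 4. Its log2 fold change was 1.13 ± 1.10 (edgeR adjusted p = 0.999). Leaving out wild type replicate 1 gave 0.40, and leaving out replicate 2 gave 2.72. The range over both wild type libraries, 4.99-fold, exceeded the 1.17-fold range in cKO. The summed level of 15 keratinocyte markers did not overlap between groups either, with 480 and 796 CPM in wild type libraries 1 and 2, against 910, 1179 and 1013 CPM in the cKO libraries. Of these markers 13 were tested, with 9 higher and 4 lower in cKO. Only 4 lay higher in every cKO library, as did 8.87% of all tested genes. Krt14 overlapped, with 89.5 and 235 CPM in wild type libraries 1 and 2, against 134, 215 and 144 CPM in the cKO libraries. All 15 were detected in at least 1 library, and their part in the Ly75 values was not tested. The gene (chromosome 2, 60292103 to 60383273) has the CpG-rich promoter window printed above.

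Mrc1, whose product takes up mannosylated ligands and also marks dermal macrophages, lay lower in every cKO library. It had 48.1 and 28.6 CPM in wild type libraries 1 and 2, against 16.7, 0 and 16.1 CPM in cKO replicates 1 to 3. A library with no count, here cKO replicate 2, allows up to 0.106 CPM at a floor of 3 counts. The log2 fold change was -1.81 ± 2.05 (edgeR adjusted p = 0.999), and it was -1.22 without cKO replicate 2 and -4.20 with limma-voom. The list of 13 dermal macrophage markers, which includes Mrc1, summed to 1285 and 899 CPM in wild type libraries 1 and 2, against 586, 976 and 848 CPM in the cKO libraries. Of that list 8 genes were tested, and 3 lay lower in every cKO library, as did 10.2% of all tested genes: Mrc1 itself, C1qb and C1qc. C1qb had 185 and 117 CPM in wild type libraries 1 and 2, against 53.4, 106 and 63.0 CPM in the cKO libraries. C1qc had 321 and 215 CPM, against 13.5, 169 and 148 CPM. Lyve1, Folr2, Mertk and Cd209f were at 0 in all libraries. The part of these cells in the Mrc1 values was not tested.

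Clec10a (chromosome 11, 70166623 to 70170836) differed in a single library. It had 28.7 and 25.6 CPM in wild type libraries 1 and 2, against 3.07, 28.0 and 30.1 CPM in cKO replicates 1 to 3. The values of cKO replicates 2 and 3 were close to those of wild type, and cKO replicate 1 was 9.83 times below cKO replicate 3. The fitted log2 fold change was -0.41 ± 1.21 (edgeR adjusted p = 0.999) and turned to 0.12 without cKO replicate 1. Its paralog Mgl2, a second macrophage galactose-type lectin, was also lowest in cKO replicate 1, at 87.5 CPM, and lay between 235 and 809 CPM elsewhere. Reads of these paralogs may not be assigned to 1 of them alone.

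Among the activating pattern receptors, Clec7a and Clec4n were well measured, and both were lowest in wild type replicate 2. Clec7a lay at 753 and 272 CPM in wild type libraries 1 and 2, against 688, 446 and 755 CPM in cKO replicates 1 to 3. Wild type replicate 1 was within the range of the cKO libraries. The log2 fold change was 0.30 ± 0.48 (edgeR adjusted p = 0.999). Leaving out wild type replicate 1 gave 1.22, and leaving out wild type replicate 2 gave -0.26.

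Clec4n, whose product recognises fungal mannans with Fcer1g as its adaptor, had 297 and 77.1 CPM in wild type libraries 1 and 2, against 448, 277 and 301 CPM in the cKO libraries. Wild type replicate 1 again lay among the cKO libraries and wild type replicate 2 below them. Its log2 fold change was 0.87 ± 0.59 (edgeR adjusted p = 0.999), and leaving out wild type replicate 1 or 2 gave 2.15 or 0.20. On the log2(CPM + 1) scale the wild type libraries differed by 1.93 for Clec4n and by 1.47 for Clec7a. Among the 2670 tested genes that averaged 50 CPM or more, the median absolute difference between the wild type libraries was 0.44, and 18.2% exceeded 1.

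Sample titles come in 2 styles, which divide the libraries into wild type replicate 1 with cKO replicates 1 and 2, and wild type replicate 2 with cKO replicate 3. Whether the style marks a batch is not stated. Within the first style the cKO mean minus wild type on the log2(CPM + 1) scale was -0.44 for Clec7a and 0.24 for Clec4n. Within the second style the differences were 1.47 and 1.95. The direction for Clec7a thus did not hold within both styles. For Cd207 the differences were 0.38 and 0.18, and for Ly75 they were 2.43 and 0.47, with the same sign in both styles. The first-style mean of Cd207 joins cKO replicate 1 above wild type replicate 1 and cKO replicate 2 below it (14597 and 6639 against 7584 CPM). For Mrc1 the differences were -3.54 and -0.79. For Clec10a and Clec4d they were -1.45 and -1.23 in the first style and 0.22 and 0.47 in the second. For Clec12a they were -1.28 and -5.36, and for Clec4e 2.39 and -5.58.

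Clec4d and Clec4e, whose products MCL and Mincle bind mycobacterial glycolipids, varied widely between libraries. Clec4d had 25.9 and 9.31 CPM in wild type libraries 1 and 2, against 102, 0.283 and 13.3 CPM in cKO replicates 1 to 3. The value of cKO replicate 2 rests on 8 counts (95% exact Poisson interval 0.122 to 0.558 CPM). The cKO libraries stood both above and below wild type, over a 359.9-fold range. The fitted log2 fold change was 1.13 ± 1.87 (edgeR adjusted p = 0.999) and turned to -1.38 without cKO replicate 1. Neutrophil markers were 9 genes, of which 6, S100a9 among them, had no count at all. They summed to 0.0529 and 0.0590 CPM in wild type libraries 1 and 2, against 9.45, 13.1 and 6.27 CPM in the cKO libraries. Csf3r alone made up the sum of cKO replicate 1 and nearly all of that of cKO replicate 2. Csf3r had no count in cKO replicate 3, where S100a8 alone made up the sum. S100a8 had no count in any other library, so no marker of the list was shared by all cKO libraries. The part of neutrophils in the Clec4d values was not tested.

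Clec4e was detected in 1 library of wild type and 1 of cKO. It had 794 counts in wild type replicate 2 and 752 counts in cKO replicate 2, or 46.8 and 26.6 CPM. Wild type replicate 1 and cKO replicates 1 and 3 had no count, which allows up to 0.159, 0.188 and 0.258 CPM. Its presence therefore did not follow genotype. The log2 fold change was -1.40 ± 3.43 (edgeR adjusted p = 0.999), and it turned to 10.41 without wild type replicate 2, a fitted value against a library at 0. In 4 members (Clec4d, Clec4e, Clec12a and Mrc1) 1 library reached 10 CPM while another lay under 1 CPM, and 36.9% of tested genes did the same.

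Clec4a2, the inhibitory receptor gene, had the smallest p-value of the members. It lay at 206 and 125 CPM in wild type libraries 1 and 2, against 54.2, 53.8 and 99.5 CPM in cKO replicates 1 to 3. Every cKO library lay below both wild type libraries, with cKO replicate 3 nearest to them. The log2 fold change was -1.26 ± 0.47, with an unadjusted p of 0.0323 and an adjusted p of 0.968 in edgeR. DESeq2 gave an adjusted p of 0.453, and over all settings the adjusted p ranged from 0.453 to 1. The fold change ranged from -1.61 without cKO replicate 3 to -0.85 without wild type replicate 1, and within the title styles the differences were -1.91 and -0.32.

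Markers of dermal dendritic cells and monocytes were read beside Clec4a2. The list of 8 dermal dendritic cell markers, which holds Mgl2, Cd209a and Cd209d, summed to 2071 and 941 CPM in wild type libraries 1 and 2, against 535, 842 and 958 CPM in the cKO libraries. All 8 were tested, with 3 higher and 5 lower in cKO. In every cKO library 1 of them lay lower (Cd209a) and 1 higher (Irf4), against 10.2% and 8.87% of all tested genes. Irf4 had 68.1 and 1.24 CPM in wild type libraries 1 and 2, against 119, 97.9 and 84.6 CPM in the cKO libraries. The list of 9 monocyte markers summed to 3377 and 2183 CPM in wild type libraries 1 and 2, against 1150, 2374 and 1830 CPM in the cKO libraries, nearly all of it Lyz2 and Cd14. Of its 5 tested genes 2 lay higher and 3 lower in cKO. Lyz2 alone lay lower in every cKO library, as did Clec4a2 and 10.2% of all tested genes. It was at 2101 and 1081 CPM in wild type libraries 1 and 2, against 528, 640 and 500 CPM in the cKO libraries. Cd14 had 1275 and 1097 CPM, against 612, 1701 and 1330 CPM. Vcan and F13a1 had no count in wild type, against 9.45, 15.2 and 0 CPM and 0.0626, 16.2 and 0 CPM in the cKO libraries. Counts of the monocyte genes Plac8 and Chil3 were 0 throughout, and Ly6c2 reached 4.19 CPM at most. The sums of both lists overlapped between groups. Their part in the Clec4a2 values was not tested.

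Clec12a, whose product is an inhibitory receptor for uric acid crystals, was scattered. It had 8.15 and 40.1 CPM in wild type libraries 1 and 2, against 0.0626, 12.4 and 0 CPM in cKO replicates 1 to 3. The first of these cKO values rests on 1 count. The groups overlapped, because cKO replicate 2 lay above wild type replicate 1. The log2 fold change was -2.53 ± 2.74 (edgeR adjusted p = 0.999). It was -9.20 without cKO replicate 2, where the remaining cKO libraries held 1 count, and -0.92 without wild type replicate 2.

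**Figure D3:**
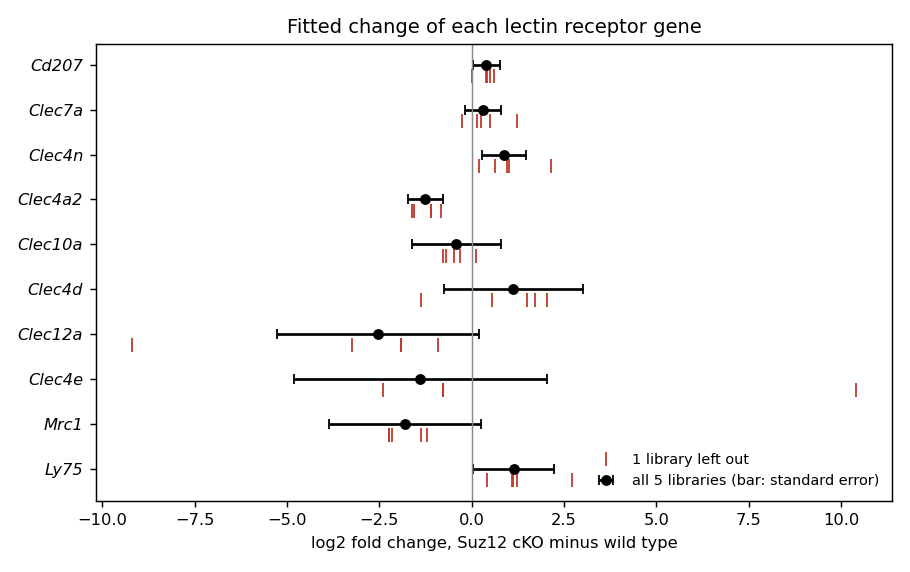
Fitted log2 fold change of each member, Suz12 cKO minus wild type; black points with bars are all 5 libraries with the standard error, and red ticks are fits with 1 library left out. Clec4a2 stays between -1.61 and -0.85 when a library is left out, whereas Clec4e runs from -2.39 to 10.41.

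Clec4a2, Clec4n, Clec4d and Clec4e are neighbours on chromosome 6, in a cluster of 9 counted lectin genes that reaches from Clec4a1 (start 122921848) to Clec4e (end 123289871) on GRCm38.p6. These neighbours were set side by side after their values were seen. Clec4a3, Clec4a4, Clec4b1 and Clec4a2 follow one another, and for all 4 every cKO library lay below both wild type libraries, as it did for 10.2% of tested genes. Clec4a3 lay at 214 and 144 CPM in wild type libraries 1 and 2, against 58.7, 54.1 and 127 CPM in the cKO libraries, a log2 fold change of -1.17 ± 0.50. Clec4b1 lay at 147 and 22.6 CPM in wild type libraries 1 and 2, against 6.82, 17.6 and 13.9 CPM in the cKO libraries, with a log2 fold change of -2.73 ± 0.93. That fold rests on wild type replicate 1: leaving it out gave -0.82, and leaving out replicate 2 gave -3.51. Clec4a3 and Clec4b1 had an edgeR adjusted p of 0.968, and Clec4a4 lay at 11.2 and 11.5 CPM in wild type libraries 1 and 2, against 7.70, 5.59 and 5.92 CPM in the cKO libraries.

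On either side of these genes the pattern was different. Clec4a1, the first gene of the cluster, had 19.7 and 47.2 CPM in wild type libraries 1 and 2, against 34.4, 41.6 and 53.8 CPM in the cKO libraries. Clec4b2 lay under 1 CPM in every library, and Clec4n, Clec4d and Clec4e overlapped between groups as given above. The Clec4a and Clec4b genes are close paralogs. The counting of reads that match several genes is not given in the sources used here. The values of these neighbours may not be independent of one another.

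**Figure D4:**
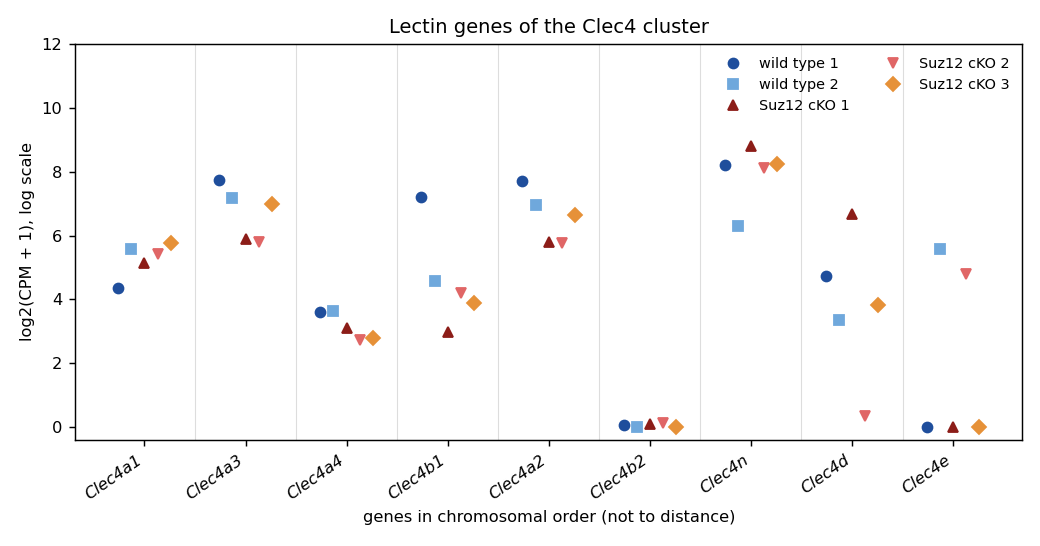
log2(CPM + 1) of the 9 counted lectin genes of the chromosome 6 cluster in chromosomal order; each point is 1 library and distances are not to scale. From Clec4a3 to Clec4a2 the 3 cKO points lie below both wild type points, and at Clec4n the cKO points lie between 277 and 448 CPM.

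Of the 7 Cd209 lectin genes, outside the members, 5 were tested and none was called by edgeR. All 5 had fitted fold changes below 0, where 52.5% of all tested genes lay above 0. The groups were separate for 3, all lower in cKO as were 10.2% of tested genes, and overlapped for Cd209d and Cd209b. The lowest of the 3, Cd209c, had 4.71 and 1.89 CPM in wild type libraries 1 and 2, against 0, 0 and 1.29 CPM in the cKO libraries. Cd209f and Cd209g had no counts. Cd209e had 486 and 226 CPM in wild type libraries 1 and 2, against 54.4, 89.1 and 149 CPM in the cKO libraries, a log2 fold change of -1.87 ± 0.53 (edgeR adjusted p = 0.968) that was -1.21 without wild type replicate 1. DESeq2 called 1 gene of the cluster, Cd209a (adjusted p = 0.0087).

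A further list of 33 genes, C-type lectins of other cells and functions and Siglech of another lectin family, had 15 tested genes, of which 5 lay higher and 10 lower and none was called by edgeR, with a median log2 fold change of -0.60. Another 15 of the 33 had no count in any library, among them Clec4f of Kupffer cells, the endothelial gene Clec14a and the liver genes Asgr1 and Asgr2. The most abundant per length in wild type were Mgl2, Cd72, Clec4a3 and Cd302. Cd72, an inhibitory co-receptor best known in B cells, had 517 and 487 CPM in wild type libraries 1 and 2, against 417, 447 and 405 CPM in the cKO libraries, a log2 fold change of -0.25 ± 0.26 (edgeR adjusted p = 0.999). Clec1a was without counts in wild type, whereas the cKO libraries had 4.76, 4.53 and 15.9 CPM, at least 83.2-fold higher with a floor of 3 counts over the wild type group. It had an adjusted p of 0.968 in edgeR and of 0.0336 in DESeq2.

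Of the signalling genes downstream of the receptors, Rubcn had counts in cKO replicate 2 alone (6.94 CPM) and was not tested. The test covered 28 of 29 such genes, with 16 higher and 12 lower in cKO and none called by edgeR. Their median log2 fold change was 0.12, beside 0.06 over all tested genes. The adaptor genes Fcer1g and Tyrobp were the most abundant per length. Fcer1g, which pairs with dectin-2, MCL and Mincle, lay at 2773 and 2783 CPM in wild type libraries 1 and 2, against 2482, 1458 and 2458 CPM in the cKO libraries. Its log2 fold change was -0.38 ± 0.31 (edgeR adjusted p = 0.999). Ptpn6, the phosphatase recruited by inhibitory receptors, lay at 398 and 400 CPM in wild type libraries 1 and 2, against 186, 515 and 286 CPM in the cKO libraries. Bcl10, which joins Card9 and Malt1 in 1 complex, lay at 148 and 209 CPM in wild type libraries 1 and 2, against 253, 128 and 181 CPM in the cKO libraries.

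The 2 smallest p-values of this list belonged to transcription factor genes at the end of the pathway. Rel, the NF-kappa-B subunit c-Rel, had 26.7 and 18.9 CPM in wild type libraries 1 and 2, against 106, 117 and 143 CPM in cKO replicates 1 to 3. Of the 28 tested genes of the list 3, Rel among them, lay higher in every cKO library, as did 8.87% of all tested genes. Fcer1g and Tyrobp were the 2 that lay lower in every cKO library, as did 10.2% of all tested genes. Rel had a log2 fold change of 2.42 ± 0.47. Its adjusted p was 0.968 in edgeR and 0.00268 in DESeq2. Nfatc1, a calcium-regulated factor, had 2.91 and 17.8 CPM in wild type libraries 1 and 2, against 53.6, 40.7 and 49.7 CPM in the cKO libraries, a log2 fold change of 2.21 ± 1.02 (edgeR adjusted p = 0.968). Leaving out wild type replicate 1 gave 1.43 for Nfatc1, and leaving out replicate 2 gave 4.04.

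**Figure D5:**
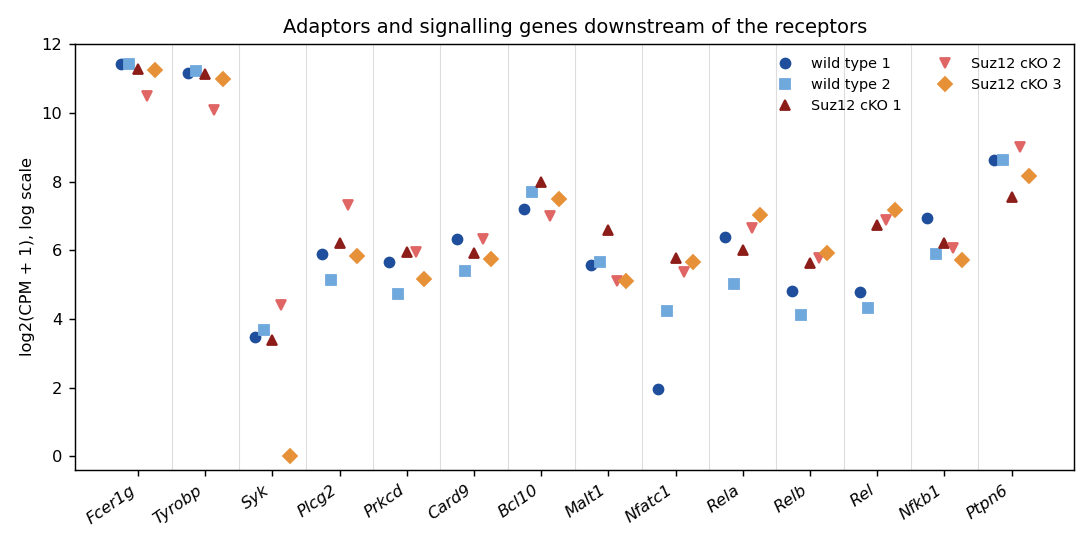
log2(CPM + 1) of 14 of the 29 signalling genes in the 5 libraries, chosen as the adaptors, the Syk and Card9 pathway and the NF-kappa-B and NFAT factors; each point is 1 library. The cKO points of Rel lie between 106 and 143 CPM, above wild type values of 18.9 and 26.7 CPM, while those of Fcer1g lie at or below 2482 CPM.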

How the data were processed

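Polyadenylated RNA of Langerhans cells was profiled in 2 wild type and 3 Suz12 cKO libraries, grouped by the sample titles. Gene-level values are raw counts that the authors deposited, once as a table of all libraries and once as 1 file per sample, with equal values. Per the submitters' processing notes, featureCounts and mm10 were used. Not given in the sources used here are the aligner, versions, strand setting and treatment of multi-mapping reads. The table also gives the counted length per gene, per the file headers. Of 27179 gene identifiers, 25293 had a symbol in RefSeq (GRCm38.p6, the assembly of mm10) or GENCODE vM21; the rest, 1.46% to 2.30% of counts per library, remained in the fit.

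Counts were fitted over all genes with edgeR 4.0.16 in R 4.3.3 (filterByExpr with a minimum count of 10, TMM factors, robust quasi-likelihood F test, Benjamini-Hochberg adjustment, threshold 0.05). The standard error is the log2 fold change divided by the root of the F value. The code was tested on simulated data. Other settings were another tool (DESeq2 1.42.0, or limma-voom with quality weights in limma 3.58.1), other scaling (RLE, upper-quartile), other filters (none, or a minimum count of 50), the non-robust fit, a term for the replicate number or for the title style, and dropping each library in turn. The members and lists were chosen with earlier results of these data known. Named are all 10 members, Suz12, in each list the 4 genes with the highest wild-type level per length or the 2 with the smallest p, and the 5 genes closest to Cd207. Others were picked with their values in view: Clec4a1, Clec4a4, Clec4b2, Rubcn, Cd209c, Epcam and H2-Aa. So were marker genes named singly and genes said to be without counts or set beside a marker list. Promoters came from RefSeq.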

Additional observations from a re-analysis of the deposited data

How the results depend on the processing

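No member passed the test under any of the 14 alternatives. Of 139 member values under them, 133 kept their direction and 6 turned. Clec4d turned to -1.41 with limma-voom, to -1.44 with the replicate block and to -1.38 without cKO replicate 1. Clec7a turned to -0.26 and Clec4e to 10.41 without wild type replicate 2, and Clec10a to 0.12 without cKO replicate 1. With single libraries left out, Clec7a ranged from -0.26 to 1.22, Clec10a from -0.77 to 0.12, Clec4e from -2.39 to 10.41 and Clec4d from -1.38 to 2.05. Values that kept their direction but moved by over 1.5 times with limma-voom or the block were those of Mrc1 (-4.20 and -5.71), Clec12a (-6.74 and -4.11), Clec10a (-0.93 and -1.54), Clec4e (-3.17 and -0.68) and, with limma-voom alone, Clec7a (0.49). With the title style as a term, Clec12a was -5.04 ± 6.98 and Clec4e -0.69 ± 482. A standard error of 482 leaves the Clec4e value of that fit undetermined. The cause of these moves was not tested. The number of members higher in cKO was 4 or 5 throughout. No value was available for Clec4e without cKO replicate 2, where it was filtered out, and DESeq2 gave it no p-value. DESeq2 called 191 genes and the replicate block 1 gene (Il10, adjusted p = 0.0049), against 0 otherwise.

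The replicate numbers are shared by the groups, but nothing says that they pair libraries. Deviations from the group means correlated at -0.03 for the libraries numbered 1 and at -0.02 for those numbered 2, across 9988 genes, which are not independent. The deviations of the 2 wild type libraries mirror each other by construction, so these values are not separate checks of a pairing. The replicate block changed no call of a member. In the order by wild-type level, 6 of the 10 members kept their place when wild type replicate 1 was left out, and 4 did when wild type replicate 2 was. Without the length, 7 did. With 1 wild type library the spread is taken from the cKO libraries.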

Other observations

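Several lectin genes outside the 10 members, and Xcr1, Batf3, Itgae and Wdfy4, were picked after their values were seen. Clec9a, a receptor for dead cells on type 1 dendritic cells, had 51.2 and 17.4 CPM in the wild type libraries, against 0, 2.19 and 0.515 CPM in cKO replicates 1 to 3. Xcr1, the chemokine receptor of the same cells, had 55.3 and 10.2 CPM in the wild type libraries, against 13.6, 18.9 and 31.7 CPM in the cKO libraries. Batf3, a transcription factor of these cells, had 19.8 and 6.37 CPM, against 4.82, 0 and 0 CPM. Of 8 type 1 dendritic cell markers 7 were tested, with 5 lower and 2 higher in cKO. The higher ones were Itgae and Wdfy4. Itgae had 11.3 and 0 CPM in the wild type libraries, against 16.8, 0 and 14.9 CPM in the cKO libraries. Wdfy4 had 1.11 and 0.531 CPM, against 0.125, 11.5 and 0 CPM. The groups were separate for 2 of the 7, Clec9a and Batf3, both lower in cKO, as were 10.2% of all tested genes. They overlapped for Xcr1. Siglech, a gene of plasmacytoid dendritic cells and microglia, had 16.2 and 136 CPM in the wild type libraries, against 51.4, 85.2 and 13.7 CPM in the cKO libraries. Cd69, an activation antigen, had 26.4 and 139 CPM in the wild type libraries, against 85.5, 113 and 119 CPM in the cKO libraries. Clec5a, an activating receptor that signals through Tyrobp's product DAP12 and DAP10, had 79.4 and 61.0 CPM in the wild type libraries, against 111, 60.1 and 23.1 CPM in the cKO libraries.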
